A study of Mus musculus with 58 samples.

Results

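Microglia of wild-type mice that had received an antisense oligonucleotide (ASO) against Mitf were compared directly with microglia of wild-type mice that had received an ASO against Tfe3. The comparison holds 8 of the 58 libraries of the series, 4 with each ASO, and asks which transcripts differ when one or the other of these related transcription factors is lowered. All 10277 genes listed for the wild-type ASO libraries were tested, and 386 of them differed between the treatments. An ASO of this kind binds its target transcript and lowers it. The mice were wild-type C57BL/6, and 1 injection into the brain ventricles delivered the ASO. Forebrain microglia were sorted 14 days later on CD11b, CD45 and CX3CR1, and polyA RNA was sequenced. Reference levels came from further wild-type groups of 4 libraries with PBS, with the control ASO (ntc in the labels) or with an ASO against Tfeb. In a separate set, SgshKO mice, which lack the heparan sulfate-degrading lysosomal enzyme Sgsh, had received ntc (8 libraries) or the Mitf and Tfe3 ASOs together (8 libraries). The labels give neither the age nor the sex of the ASO-treated mice, and they do not say that each library came from a separate animal. The p-values therefore measure the spread between these libraries, which may be technical in part.

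Mitf, Tfe3, Tfeb and Tfec form the MiT/TFE family of basic helix-loop-helix leucine zipper transcription factors. They bind DNA as homodimers or as heterodimers with each other, at E-boxes of the sequence CACGTG and at the related CATGTG. When nutrients are plentiful, mTORC1 phosphorylates the factors at the lysosome with the help of the Rag GTPases and folliculin and keeps them in the cytosol. On release they enter the nucleus and are known to activate genes of lysosomal hydrolases, the proton pump and autophagy. Mitf is best known from pigment cells and osteoclasts. The overlap in binding sites is why genes that depend on one factor are usually hard to separate from those that depend on another.

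The promoters of the genes that differed are shown first, because the E-box is the sequence that both targeted factors recognise. Of the 6446 tested genes with exactly 1 promoter in the RefSeq table (GRCm38.p6, 250 bases before to 50 bases after the start), 10.7% held CACGTG and 8.36% held CATGTG or its reverse complement CACATG, with both strands read. Of the 166 such genes that were higher with the Mitf ASO than with the Tfe3 ASO, 40 (24.1%) held CACGTG and 35 (21.1%) held CATGTG or CACATG. Of the 74 that were higher with the Tfe3 ASO, 2 (2.7%) and 5 (6.76%) did. Among lysosomal genes the forms fell differently. CACGTG was in 7 of 28 lysosomal promoters of genes that differed (25%) and in 14 of 44 of the rest (31.8%), whereas CATGTG or CACATG was in 7 of the 28 (25%) and in 3 of the 44 (6.82%). These shares were not tested. A match is a description of these letters and not evidence of a bound site. The stretches below belong to Dpp7, the lysosomal hydrolase with the largest difference, and to 3 genes of the lysosome lists that differed. These 3 were chosen because they hold CACGTG between a T and an A before the start. Over the whole window that form was in 4 of the 28 (14.3%) and in 7 of the 44 (15.9%), against 2.26% of the 6446 genes. Dpp7, which stands outside the lists, holds that form too. They are printed 5′ to 3′ on the strand of the gene, with these E-box forms in capitals. The Dpp7 stretch ends 1 base before the start (chr2:25356333-25356582, minus strand), and its 3 matches lie 73, 42 and 29 bases before it. The others are 66-base parts of the Clcn6 (chr4:148038814-148038879, minus strand), Gla (chrX:134601190-134601255, minus strand) and Mcoln1 promoters (chr8:3500447-3500512, plus strand).
Dpp7: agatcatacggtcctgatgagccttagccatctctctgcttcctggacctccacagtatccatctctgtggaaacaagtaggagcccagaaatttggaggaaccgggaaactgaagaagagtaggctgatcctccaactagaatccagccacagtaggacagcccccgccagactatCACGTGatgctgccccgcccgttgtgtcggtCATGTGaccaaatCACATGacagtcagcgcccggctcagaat
Clcn6: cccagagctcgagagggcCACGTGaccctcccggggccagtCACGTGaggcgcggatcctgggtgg
Gla: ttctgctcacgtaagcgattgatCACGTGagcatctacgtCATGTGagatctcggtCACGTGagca
Mcoln1: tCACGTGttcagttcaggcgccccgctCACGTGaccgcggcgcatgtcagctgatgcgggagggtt

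Igfbp4 and Gpr165, which were both higher with the Tfe3 ASO, had no such match in the 250 bases before the start, and neither did Ccl9. The Igfbp4 promoter (chr11:99040994-99041243, plus strand) is printed for comparison with that of Dpp7.
Igfbp4: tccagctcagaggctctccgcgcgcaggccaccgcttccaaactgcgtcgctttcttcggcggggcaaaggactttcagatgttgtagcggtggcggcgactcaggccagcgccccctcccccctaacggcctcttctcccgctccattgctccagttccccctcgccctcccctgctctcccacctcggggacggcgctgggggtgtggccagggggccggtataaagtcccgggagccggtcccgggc
Tuba4a, which was higher with the Mitf ASO, likewise had none in that window, and Mt1 had a single CACATG 74 bases before the start. The lysosomal genes Dnase2a, Galc and Neu1 also had none. No match says only that these letters are not in this window.

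Each ASO lowered its own target and left the other target near the control level. Values are CPM, which are counts scaled to library size and normalisation factor, and are given for replicates 1 to 4, which carry the numbers of grp 1 to 4. Mitf (chr6:97807052-98021349 on mm10) had 1.01, 1.58, 1.58 and 2.15 CPM in the Mitf ASO libraries, 41.9, 44.2, 46.7 and 45.8 CPM in the Tfe3 ASO libraries and 34.5, 42.8, 47.3 and 50.4 CPM with ntc. Every Mitf ASO library lay far below every other one. On average Mitf was at 1.58 ± 0.466 CPM with the Mitf ASO and at 44.6 ± 2.11 CPM with the Tfe3 ASO (SD, n = 4). The difference was -4.85 ± 0.12 (log2, SE), and 3.56% of the ntc level remained. Tfe3 (chrX:7762560-7775202) had 40.03, 36.8, 34.9 and 40.5 CPM in the Tfe3 ASO libraries, 189, 189, 202 and 206 CPM in the Mitf ASO libraries and 202, 192, 196 and 202 CPM with ntc. Again the treated libraries did not overlap the others, and the mean was 19.2% of the ntc level. The remaining Tfe3 transcript was therefore a larger share of its control level than the remaining Mitf transcript was of its own. Mitf was at 102.8% of ntc with the Tfe3 ASO, and Tfe3 was at 99.3% of ntc with the Mitf ASO, so neither transcript was called against ntc when the other was targeted (edgeR adjusted p of 0.871 and 0.927). Tfeb had 58.9, 57.95, 48.4 and 54.9 CPM with the Mitf ASO and 56.2, 53.96, 44.8 and 49.5 CPM with the Tfe3 ASO. These ranges overlapped, and the difference of 0.11 ± 0.07 (log2, SE) did not pass the test (adjusted p = 0.481). Tfec was not measured here. The levels measured are of RNA only, and protein was not analysed here.

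**Figure D1:**
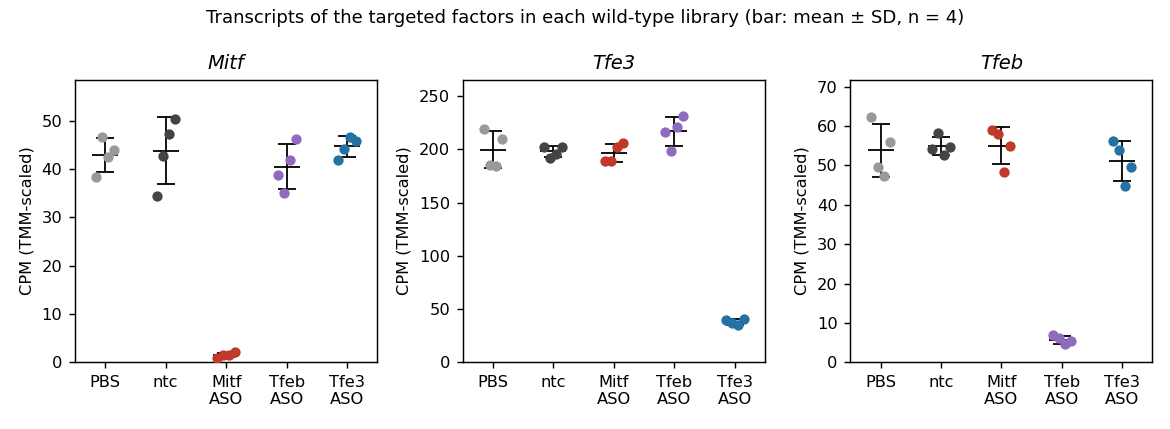
Level of Mitf, Tfe3 and Tfeb (CPM, linear axis from 0) in each of the 20 wild-type libraries, grouped by treatment; points are libraries and bars the mean ± SD (n = 4). The Mitf ASO libraries sit at 1.58 CPM on average for Mitf and the Tfe3 ASO libraries at 38.1 CPM for Tfe3, while the other target stays at the ntc level in each.

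Most of the genes that differed at the threshold were higher with the Mitf ASO. At an adjusted p of 0.05 (edgeR quasi-likelihood F test, Benjamini-Hochberg over 10277 genes, grp as block), 386 genes differed (3.76%). Of these, 270 were higher with the Mitf ASO (2.63%) and 116 were higher with the Tfe3 ASO (1.13%). The differences were small: the median log2 fold change was 0.41 among the former and -0.30 among the latter, 77 genes differed by at least 1.5-fold and 15 by at least 2-fold. The sign was the same in all 4 grp pairs for 383 of the 386, which a selection with grp as block itself favours. Over all genes the Mitf ASO library was the higher one in all 4 pairs for 1318 (12.8%). The libraries of the groups did not overlap for 253 of the 386, against 568 of all genes (5.53%). At the edge of the threshold, Spryd3 was just inside (log2 fold change 0.28, adjusted p = 0.0492) and Arpc2 just outside (-0.13, adjusted p = 0.0505). The split between the directions depended on the threshold. At an unadjusted p under 0.05, 837 of all genes were higher and 784 lower with the Mitf ASO, which is near even. DESeq2 called 347 higher and 208 lower with the Mitf ASO. The number called rests on the pairing by grp, the number in the titles that the treatments share. Without it as a block, 100 genes were called, 89 higher and 11 lower with the Mitf ASO, and all 100 were among the 386. Leaving out 1 library at a time gave 218 to 303 genes, with 218 without Mitf ASO replicate 1, 242 without Mitf ASO replicate 2, 235 without Tfe3 ASO replicate 1 and 254 without Tfe3 ASO replicate 3.

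**Figure D2:**
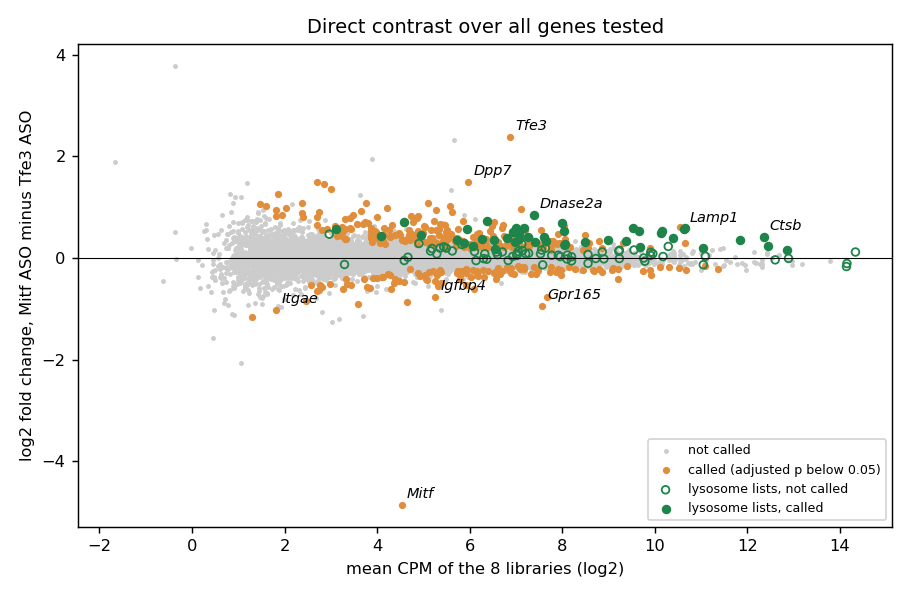
Log2 fold change (Mitf ASO minus Tfe3 ASO) against mean CPM (log2) for all 10277 genes, with called genes filled in orange and members of the lysosome lists in green. The called lysosomal genes all lie above 0, and both targets lie apart from the rest at -4.85 and 2.37.

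Lysosomal genes were higher with the Mitf ASO wherever they differed at the threshold, and they made up 43 of the 270 genes on that side. Over 4 lists of lysosomal genes (proton pump, hydrolases, cathepsins with their inhibitors, and membrane proteins with transporters), 108 of 121 listed genes were measured. Of these, 43 were higher with the Mitf ASO than with the Tfe3 ASO and 0 were lower (39.8% called, against 3.76% of all genes), with a median log2 fold change of 0.16 against -0.00 over all genes. At an unadjusted p under 0.05 the lists had 61 higher and 2 lower, and DESeq2 called 44 higher and 0 lower. The Mitf ASO library was the higher one in all 4 grp pairs for 65 of the 108 (60.2%, against 12.8% of all genes). The count was 26 without the grp block and 34 to 38 when 1 library was left out. Against ntc, which both comparisons share, 46 of the 108 were higher and 0 lower with the Mitf ASO (5.77% and 5.21% of all genes), and 8 were higher and 6 lower with the Tfe3 ASO (1.46% and 0.701%). The list medians were 0.17 and -0.02. Of the 43, 27 passed against ntc with the Mitf ASO only, 3 passed upward with both, 5 passed upward with the Mitf ASO and downward with the Tfe3 ASO, and 8 had no such placing. Leading members follow by role.

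The lysosomal proton pump (V-ATPase) acidifies the organelle. Of 17 measured subunits and accessory genes, 7 were higher with the Mitf ASO and 0 lower (2.63% and 1.13% of all genes). The median log2 fold change of the 17 was 0.26. 11 of them were higher at an unadjusted p under 0.05 and 0 lower, and DESeq2 called 8 higher. Atp6v1g1, a subunit of the peripheral stalk, had 166, 159, 136 and 116 CPM with the Mitf ASO, 116, 107, 98.9 and 83.6 CPM with the Tfe3 ASO and 129, 111, 102 and 81.1 CPM with ntc. In every grp the Mitf ASO library was the highest of the 3, and grp 1 was the highest and grp 4 the lowest library of each treatment. The difference of 0.51 ± 0.06 (log2, SE) passed with the block (adjusted p = 7.04e-05) and did not pass without it (adjusted p = 0.182). Atp6v1e1, another stalk subunit, differed by 0.38 ± 0.05 with the block (adjusted p = 0.000135, and 0.0769 without it). Only 1 of the 7 pump genes passed without the block.

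Among 37 measured hydrolases 15 were higher with the Mitf ASO and 0 lower (2.63% and 1.13% of all genes). The list median was 0.12, and 19 were higher and 0 lower at an unadjusted p under 0.05. Dpp7, a lysosomal dipeptidyl peptidase (chr2:25352276-25356359), had the largest difference of a lysosomal gene. It stands outside the lists and was named for its size. Its level was 99.2, 97.4, 89.9 and 82.3 CPM with the Mitf ASO, 36.7, 33.1, 33.4 and 28.4 CPM with the Tfe3 ASO and 46.5, 42.1, 49.4 and 32.3 CPM with ntc. The lowest Mitf ASO library lay above the highest Tfe3 ASO library by more than the whole range of either group, and the ntc libraries lay between, overlapping the Tfe3 ASO libraries. The fold change was 2.80 (log2 1.49 ± 0.11, SE, adjusted p = 1.35e-07). Tpp1, the tripeptidyl peptidase lost in a childhood neuronal ceroid lipofuscinosis, had 1008, 968, 895 and 956 CPM with the Mitf ASO and 672, 679.7, 619 and 672 CPM with the Tfe3 ASO. The groups did not overlap (log2 0.53 ± 0.05, adjusted p = 1.49e-06), and the Tfe3 ASO did not pass against the ntc level of 698 ± 17.9 CPM (SD, n = 4; adjusted p = 0.43). Dnase2a, the acid DNase that degrades engulfed DNA, had 232, 219.7, 225 and 188 CPM with the Mitf ASO, 144, 118, 111 and 108 CPM with the Tfe3 ASO and 179, 147, 167 and 134 CPM with ntc. Here the ntc libraries lay between the treatments in every grp.

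Of 13 measured cathepsins and cystatins, 7 were higher with the Mitf ASO and 0 lower (2.63% and 1.13% of all genes). The list median was 0.21, with 9 higher and 1 lower at an unadjusted p under 0.05. Ctsa, the serine carboxypeptidase that protects the sialidase Neu1, had 1960.2, 1802, 2085 and 1937 CPM with the Mitf ASO, 1275, 1250.3, 1341 and 1299 CPM with the Tfe3 ASO and 1249, 1154, 1464 and 1221 CPM with ntc. The Mitf ASO libraries stood apart, and those with the Tfe3 ASO lay within the ntc range (log2 difference between the ASOs 0.59 ± 0.04, adjusted p = 1.35e-07). Ctsb, a cysteine protease, had 6557, 5642, 5890.3 and 5798 CPM with the Mitf ASO, 4647, 4379, 4493 and 4328 CPM with the Tfe3 ASO and 3482, 3172, 3770.2 and 3151 CPM with ntc. It was higher than ntc with both ASOs (log2 0.82 and 0.40, adjusted p = 2.37e-09 and 7.29e-05) and higher with the Mitf ASO than with the Tfe3 ASO (log2 0.42 ± 0.04, adjusted p = 1.07e-05). Ctsl, a related protease, differed by 0.48 ± 0.05 between the ASOs (adjusted p = 1.42e-05), and its Tfe3 ASO level did not pass the test against ntc (log2 0.07, adjusted p = 0.556).

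Of 41 measured membrane proteins and transporters 14 were higher with the Mitf ASO and 0 lower (2.63% and 1.13% of all genes). The list median was 0.15, with 22 higher and 1 lower at an unadjusted p under 0.05. Lamp1, the most familiar glycoprotein of the lysosomal membrane, had 1955, 1819, 1883 and 1905 CPM with the Mitf ASO, 1322, 1232, 1277 and 1265 CPM with the Tfe3 ASO and 1303, 1274, 1439.8 and 1262 CPM with ntc. All 4 Mitf ASO libraries were above the 8 others, which overlapped each other. The log2 fold change between the ASOs was 0.57 ± 0.04 (SE, adjusted p = 2.19e-07). Npc2, which hands cholesterol to the lysosomal membrane, had 965, 909, 872 and 796 CPM with the Mitf ASO and 591, 602, 639.7 and 533 CPM with the Tfe3 ASO, and these did not overlap (log2 0.58 ± 0.05, adjusted p = 7.41e-07). Clcn7, the chloride and proton exchanger known as a MITF target in osteoclasts, had 178, 153, 149 and 133 CPM with the Mitf ASO, 110.4, 108, 96.4 and 89.3 CPM with the Tfe3 ASO and 139, 124, 126 and 111 CPM with ntc. In each grp ntc lay between the ASOs, and the difference between them was 0.60 ± 0.06 (log2, SE, adjusted p = 2.91e-06). Clcn7 was also the only member of 11 measured pigment cell and osteoclast MITF targets to differ (3.76% of all genes did, list median 0.09). Its direction was higher with the Mitf ASO. Mcoln1, Clcn6 and Gla, whose promoters are printed above, differed by 0.46, 0.35 and 0.57 (adjusted p = 0.000446, 0.00267 and 0.0155).

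**Figure D3:**
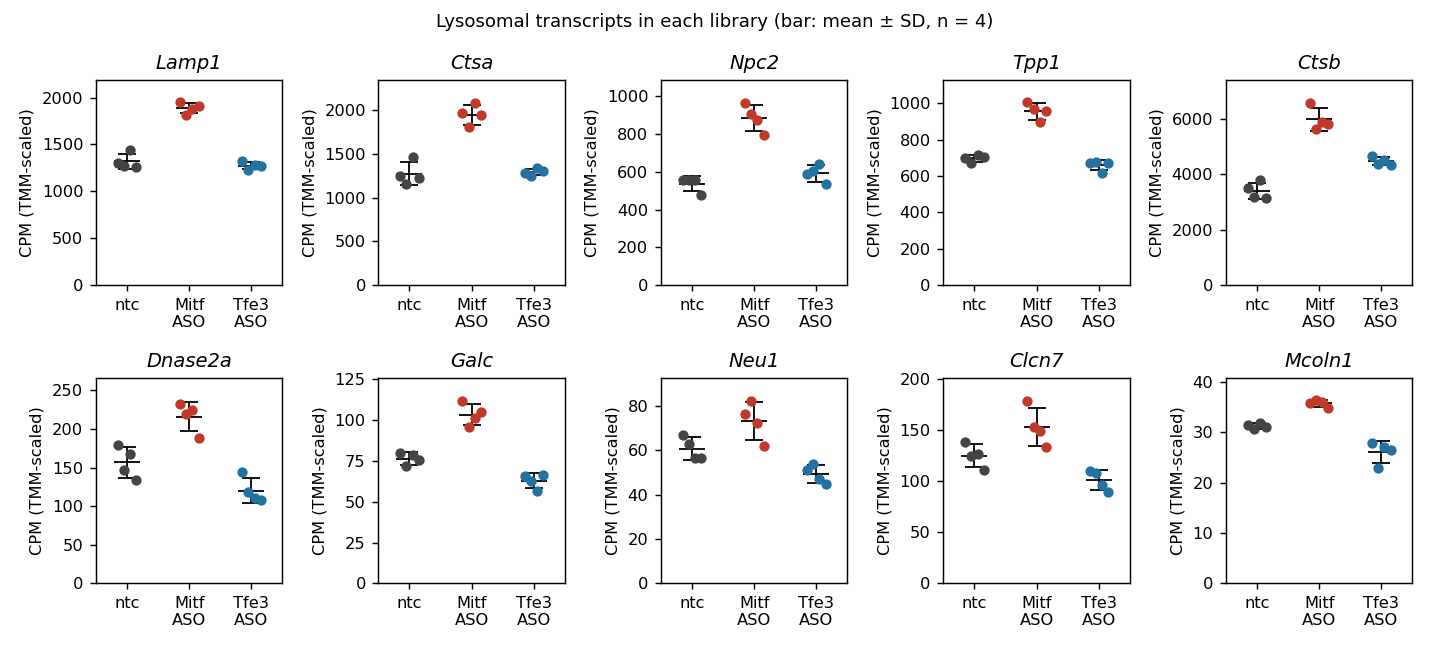
Level of 10 lysosomal transcripts (CPM, linear axes from 0) in the ntc, Mitf ASO and Tfe3 ASO libraries; points are libraries and bars the mean ± SD (n = 4). In the top row the Mitf ASO libraries stand above the other groups. In the bottom row the mean of the Tfe3 ASO libraries lies below that of ntc, as it does for Lamp1 and Tpp1 in the top row.

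Genes of the sensors that keep the factors in the cytosol come next. Of 31 measured genes of folliculin, the Rag GTPases and mTORC1 sensing, 4 were higher with the Mitf ASO and 0 lower (2.63% and 1.13% of all genes; median 0.09; 8 higher and 2 lower at an unadjusted p under 0.05). Flcn, which encodes folliculin, had 164, 209, 152 and 174 CPM with the Mitf ASO, 111, 135, 116 and 118 CPM with the Tfe3 ASO and 138, 150.3, 161 and 145 CPM with ntc. The ASO groups did not overlap (log2 0.54 ± 0.08, adjusted p = 0.000537), while neither passed against ntc on its own (adjusted p = 0.078 and 0.0611). Lamtor3, part of the Ragulator scaffold, differed by 0.46 ± 0.08 (adjusted p = 0.00224). Of 46 measured autophagy genes 2 were higher with the Mitf ASO and 1 was lower (3.76% of all genes in either direction; median 0.05). Gabarap, an ATG8 protein of the autophagosome membrane, differed by 0.38 ± 0.05 (adjusted p = 0.000161). Vps18, a tethering subunit of the lysosome fusion complexes, differed by 0.34 ± 0.07 (adjusted p = 0.00652) and lost its call without Mitf ASO replicate 2 (0.28, adjusted p = 0.0504) and without the grp block. Rb1cc1, the FIP200 subunit of the autophagy-starting kinase complex, had 29.4, 33.7, 40.2 and 37.4 CPM with the Mitf ASO and 35.8, 40.5, 46.6 and 48.97 CPM with the Tfe3 ASO. The groups overlapped, and the difference of -0.29 (adjusted p = 0.00331) was 0.01 in the authors' batch-corrected values (adjusted p = 0.98), so its direction is not settled.

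**Figure D4:**
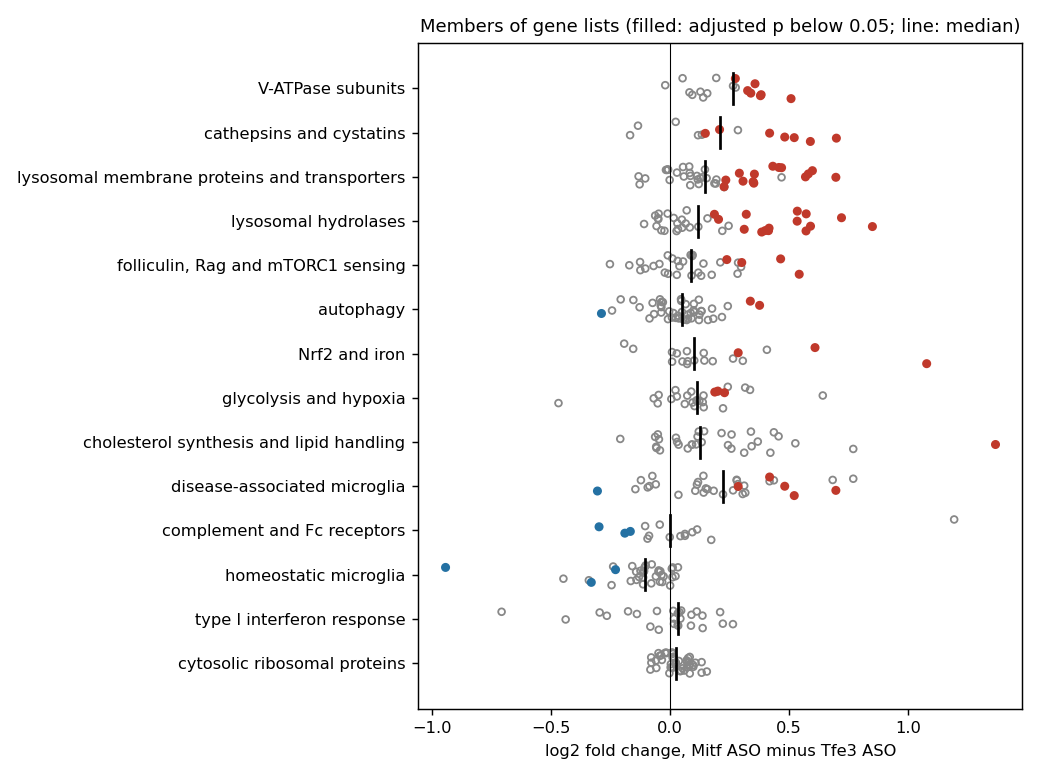
Log2 fold change (Mitf ASO minus Tfe3 ASO, x axis) of every measured member of 14 gene lists (y axis); filled points have an adjusted p below 0.05 (red higher, blue lower with the Mitf ASO), open points do not, and black lines are list medians. The lysosome lists have called members only to the right of 0, and the ribosomal and interferon lists have no called member.

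Other genes with large differences upward with the Mitf ASO were mostly low in level. The 12 largest, by the rule for named genes, included Tfe3 itself, Tuba4a, Dpp7, Rapsn, Prnp, Mt1, Steap3, Lox, Il1r1, Prkg1 and Uap1l1. Tuba4a, an alpha-tubulin, had 13.4, 8.97, 7.48 and 8.73 CPM with the Mitf ASO, 2.91, 3.46, 3.29 and 3.59 CPM with the Tfe3 ASO and 8.07, 5.27, 4.13 and 4.14 CPM with ntc. All Mitf ASO libraries lay above all Tfe3 ASO libraries, which in turn lay below all of ntc (log2 1.502 ± 0.17, adjusted p = 2.36e-05). Rapsn, a clustering protein of the acetylcholine receptor at the neuromuscular junction, had 9.31, 13.6, 11.8 and 7.66 CPM with the Mitf ASO and 3.88, 4.35, 4.12 and 2.95 CPM with the Tfe3 ASO (log2 1.46, adjusted p = 2.99e-05). Mt1, a metallothionein that binds zinc and copper, had 58.4, 47.5, 42.4 and 37.6 CPM with the Mitf ASO and 27.2, 19.1, 20.6 and 20.9 CPM with the Tfe3 ASO (log2 1.08, adjusted p = 7.29e-06). For both genes the ASO groups did not overlap. Uap1l1, named for its likeness to the UDP-N-acetylhexosamine pyrophosphorylase Uap1, had 79.98, 64.1, 58.7 and 50.2 CPM with the Mitf ASO, 41.6, 33.9, 26.96 and 23.4 CPM with the Tfe3 ASO and 60.1, 37.1, 43.9 and 28.9 CPM with ntc (log2 difference between the ASOs 1.02, adjusted p = 2.11e-06). Its ntc level lay between those of the ASOs in every grp.

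Prnp, the prion protein gene, had 3.62, 6.13, 4.51 and 6.26 CPM with the Mitf ASO and 2.03, 2.04, 3.04 and 1.56 CPM with the Tfe3 ASO (log2 1.26, adjusted p = 0.00589). It shares its strand and position with the annotated gene Prn, so reads may be split between them. Of 32 measured genes of cholesterol synthesis and lipid handling 1 was higher with the Mitf ASO and 0 lower (2.63% and 1.13% of all genes). The median of the list was 0.13, with 10 higher and 1 lower at an unadjusted p under 0.05. Prkg1, a cGMP-dependent kinase, differed by 1.03 (adjusted p = 0.00786) and by 0.48 in the batch-corrected values (adjusted p = 0.485). Il1r1, the interleukin-1 receptor, differed by 1.05 (adjusted p = 0.0158), a call lost when any of Mitf ASO replicates 1, 2 and 3 or Tfe3 ASO replicates 2 and 4 was left out (adjusted p up to 0.0636). Lox, lysyl oxidase, had 22.7, 17.1, 14.3 and 19.2 CPM with the Mitf ASO, 13.05, 7.86, 7.56 and 6.89 CPM with the Tfe3 ASO and 4.96, 2.19, 5.38 and 1.77 CPM with ntc. Its groups fell in that order without overlap between the ASOs, and it was higher than ntc with both (log2 2.42 and 1.34, adjusted p = 6.38e-05 and 0.0281). The difference between the ASOs (log2 1.08, adjusted p = 0.0384) did not survive the loss of any 1 of the 8 libraries (adjusted p of 0.0633 to 0.125).

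Both ferritin chains and an iron reductase were higher with the Mitf ASO. Of 19 measured Nrf2 and iron genes 3 were higher with the Mitf ASO and 0 lower (2.63% and 1.13% of all genes; median 0.10; 7 higher and 2 lower at an unadjusted p under 0.05; DESeq2 also called 1 lower). Ftl1, the ferritin light chain, had 1865, 2002, 1799 and 1572 CPM with the Mitf ASO, 1152, 1155, 1365 and 1073 CPM with the Tfe3 ASO and 964, 920.1, 1008 and 792 CPM with ntc. It stood highest with the Mitf ASO, lower with the Tfe3 ASO and lowest with ntc, and no group overlapped another (log2 difference between the ASOs 0.61 ± 0.07, adjusted p = 1.28e-05). Fth1, the ferritin heavy chain, differed by 0.29 between the ASOs (adjusted p = 0.00508). Steap3, an endosomal ferric reductase, had 8.76, 6.72, 5.76 and 7.21 CPM with the Mitf ASO, 3.57, 3.31, 3.60 and 2.89 CPM with the Tfe3 ASO and 6.60, 4.51, 5.74 and 5.48 CPM with ntc. All Tfe3 ASO libraries lay below the ntc range (log2 -0.73 against ntc, adjusted p = 0.00737). Mitf ASO replicates 1, 2 and 4 lay above it, but the Mitf ASO did not pass against ntc (log2 0.35, adjusted p = 0.093). The difference between the ASOs was 1.08 ± 0.13 (adjusted p = 6.05e-05).

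Genes higher with the Tfe3 ASO than with the Mitf ASO included surface receptors and chemokine genes of microglia. The 12 largest were Mitf itself, Rasgrp4, Itgae, Gpr165, Ccr1, Chml, Adtrp, Ccl9, Igfbp4, Gimap9, Thsd1 and Cd1d1. Gpr165, an orphan receptor on the homeostatic microglia list, had 99.7, 154, 106 and 165 CPM with the Mitf ASO, 223, 273, 232 and 257 CPM with the Tfe3 ASO and 241, 381, 209 and 362 CPM with ntc. All Mitf ASO libraries lay below all the others, and the Tfe3 ASO libraries lay within the ntc range. The Tfe3 ASO level was 1.92-fold that of the Mitf ASO (log2 -0.94 ± 0.10, adjusted p = 1.21e-05; without the block the adjusted p was 0.05003). Igfbp4, a binding protein of insulin-like growth factors (chr11:99041244-99054392), had 24.2, 30.6, 28.9 and 29.1 CPM with the Mitf ASO, 49.5, 44.6, 49.6 and 47.1 CPM with the Tfe3 ASO and 40.7, 38.5, 42.9 and 41.1 CPM with ntc. The 3 groups did not overlap, with the Tfe3 ASO highest and the Mitf ASO lowest (log2 between the ASOs -0.76 ± 0.07, adjusted p = 3.85e-06), and only the Mitf ASO passed against ntc (-0.54, adjusted p = 0.000151, against 0.23, adjusted p = 0.119). Chml, a Rab escort protein, had 12, 19.5, 18.3 and 22.1 CPM with the Mitf ASO and 29.3, 33.2, 32.3 and 34.96 CPM with the Tfe3 ASO, without overlap (log2 -0.87, adjusted p = 0.000119). It lies within the locus of Opn3 on the same strand, so its counts are uncertain.

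Chemokine genes did not move as a group. Of 28 measured chemokine, cytokine and NF-kB genes 2 were higher and 2 lower with the Mitf ASO (2.63% and 1.13% of all genes; median 0.04). Ccl9, a chemokine of the myeloid lineage, had 191, 138, 139.9 and 135 CPM with the Mitf ASO, 339, 222, 243 and 229 CPM with the Tfe3 ASO and 235, 160.5, 161 and 186 CPM with ntc. In every grp the Tfe3 ASO library was the highest and the Mitf ASO library the lowest, and replicate 1 was the highest of each treatment. The difference was -0.77 ± 0.08 (log2, SE, adjusted p = 1.32e-05), and both ASOs passed against ntc in opposite directions (-0.30 and 0.47, adjusted p = 0.0277 and 0.00621). Ccl6, its neighbour in the same chemokine cluster, differed by -0.30 (adjusted p = 0.0225), a call lost in 6 of 8 fits that left out 1 library (adjusted p up to 0.118), among them those without Mitf ASO replicates 1, 2 and 3. Ccr1, a receptor of these chemokines, had 8.89, 7.31, 6.78 and 10.8 CPM with the Mitf ASO and 22.04, 17.3, 11.5 and 12.1 CPM with the Tfe3 ASO. The groups did not overlap, but the log2 difference of -0.91 (adjusted p = 0.0255) was -0.64 without Tfe3 ASO replicate 1 (adjusted p = 0.13) and lost its call without Mitf ASO replicates 1, 2 or 3 or Tfe3 ASO replicate 2 too. Bcl3, an NF-kB regulator, and Cxcl16, a scavenger receptor chemokine, were higher with the Mitf ASO (0.83 and 0.27, adjusted p = 0.035 and 0.0373). Each lost its call in 7 of the 8 fits without a library, with adjusted p up to 0.112 and 0.163.

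Itgae, the integrin alpha E chain, was low in level, with 2.36, 2.07, 2.28 and 2.59 CPM with the Mitf ASO, 4.80, 4.07, 6.28 and 3.82 CPM with the Tfe3 ASO and 2.40, 1.76, 2.09 and 2.20 CPM with ntc. All Tfe3 ASO libraries lay above the other 8, so the difference of -1.02 ± 0.21 (adjusted p = 0.0074) came with a rise against ntc under the Tfe3 ASO (1.15, adjusted p = 0.00657). Itgam, the CD11b chain used to sort the cells, showed the same order at a far smaller size. It had 1952, 1962, 2143 and 2161 CPM with the Mitf ASO, 2201, 2224, 2428 and 2369 CPM with the Tfe3 ASO and 1827, 1936, 2219 and 2132 CPM with ntc, and the ASO groups did not overlap (log2 -0.17, adjusted p = 0.0186). Its call was lost without Mitf ASO replicate 2 or 3 or Tfe3 ASO replicate 1 (adjusted p up to 0.0715), and it shares its strand and position with the annotated gene Gm49368. Fcgr4, an activating Fc receptor, differed by -0.30 (adjusted p = 0.0323) with overlapping groups and lost its call in 6 of 8 fits without a library (adjusted p up to 0.117). Together with Fcgr2b, the inhibitory Fc receptor (-0.19, adjusted p = 0.0336; named after its value was seen), these were 3 lower and 0 higher of 15 measured complement and Fc receptor genes (1.13% lower among all genes; median -0.00; 4 lower and 1 higher at an unadjusted p under 0.05). That count was 0 without Mitf ASO replicate 3 or Tfe3 ASO replicate 1 and 1 without Mitf ASO replicate 2 or 4.

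**Figure D5:**
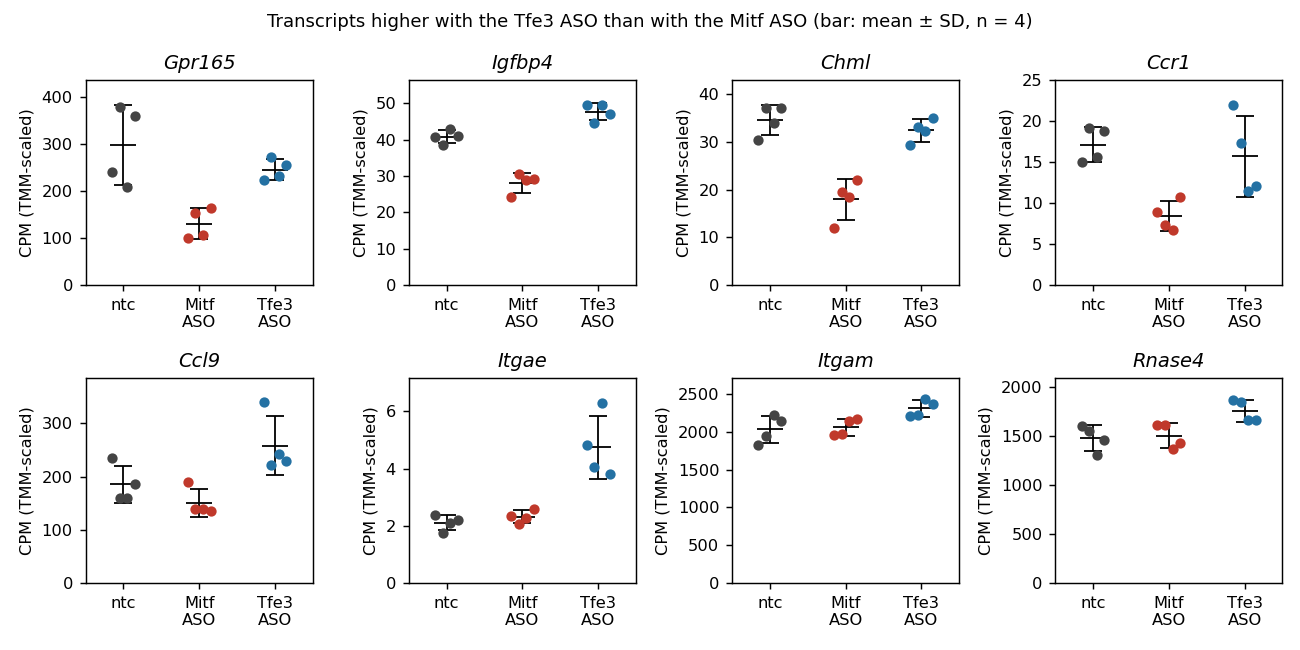
Level of 8 transcripts that were higher with the Tfe3 ASO than with the Mitf ASO (CPM, linear axes from 0) in the ntc, Mitf ASO and Tfe3 ASO libraries; points are libraries and bars the mean ± SD (n = 4). Gpr165, Igfbp4, Chml and Ccr1 have their Mitf ASO libraries below ntc, whereas Itgae, Itgam and Rnase4 have their Mitf ASO mean near that of ntc and their Tfe3 ASO mean above it.

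Of 36 measured homeostatic microglia genes, 3 were lower with the Mitf ASO and 0 higher (1.13% and 2.63% of all genes), with a median of -0.10 and 16 lower and 0 higher at an unadjusted p under 0.05. DESeq2 called 5 lower, as did a fit of the 8 libraries alone. Besides Gpr165 these included Slc2a5, the fructose transporter (-0.23, adjusted p = 0.0308; named after its value was seen). Against ntc, 12 homeostatic genes were lower and 1 higher with the Mitf ASO (5.21% and 5.77% of all genes), and 2 lower and 2 higher with the Tfe3 ASO (0.701% and 1.46%). Several of the 12 largest differences rested on low levels. Rasgrp4 (-1.17), Gimap9 (-0.64), Thsd1 (-0.63) and Cd1d1 (-0.61) lost their calls in 6, 6, 5 and 6 of the 8 fits that left out 1 library, with adjusted p up to 0.0868, 0.0836, 0.0957 and 0.111. Adtrp, a hydrolase of fatty acid esters (-0.85, adjusted p = 0.0103), lost it without Tfe3 ASO replicate 2 (-0.71, adjusted p = 0.0591).

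The 386 genes were placed by which ASO also passed against ntc, and in which direction. With the Mitf ASO only, the sign had to be that of Mitf ASO minus Tfe3 ASO. With the Tfe3 ASO only, it had to be the opposite sign. The 2 comparisons with ntc share their control libraries and differed in size: 1128 genes passed with the Mitf ASO (11.0%) and 222 with the Tfe3 ASO (2.16%). Of the 386, 235 passed with the Mitf ASO only (60.9%), 154 of them higher and 81 lower. 18 passed with the Tfe3 ASO only (4.66%), 11 with both in opposite directions, 8 with both in the same direction and larger with the Mitf ASO, and 114 with neither in a way that places them. The 222 genes were 140, 129, 79 and 103 without Tfe3 ASO replicates 1, 2, 3 and 4, and the 1128 were 678 and 630 without Mitf ASO replicates 1 and 2. The class of the Mitf ASO held 129 and 138 genes without Mitf ASO replicates 1 and 2. That of the Tfe3 ASO held 10, 12, 6 and 10 without Tfe3 ASO replicates 1, 2, 3 and 4. The placing also depends on the block and the control: without the block the class of the Tfe3 ASO had 2 genes, and with PBS in place of ntc it had 45. Against PBS, 18.1% of genes passed with the Mitf ASO and 9.74% with the Tfe3 ASO. A gene not called against ntc with one ASO is not shown to be unaffected by it, since the remaining target level and the power also differ between the ASOs.

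The 18 genes placed with the Tfe3 ASO are all named here, after their values were seen. Those lower with the Tfe3 ASO than with both ntc and the Mitf ASO were Tfe3, Bid, Smcr8, Wdr81, Gorasp1, B3glct, Stx2, Rgs7bp, Tbc1d24, Impact, Rora, Ankrd28 and Steap3. Smcr8, a partner of C9orf72 in autophagy and lysosome control, had 129, 133, 118 and 146 CPM with the Mitf ASO, 104, 108, 105 and 117 CPM with the Tfe3 ASO and 116, 128, 143 and 135 CPM with ntc. Rora, a nuclear receptor of the clock, had 14.95, 16.8, 16.8 and 17.6 CPM with the Mitf ASO, 8.42, 10.8, 10.5 and 11 CPM with the Tfe3 ASO and 12.1, 14.4, 19.3 and 15.1 CPM with ntc. In both genes the Tfe3 ASO library lay below the Mitf ASO and the ntc library in every grp (log2 differences between the ASOs 0.28 and 0.70, adjusted p = 0.00978 and 0.00135). In the batch-corrected values Rora differed by 0.52 and did not pass (adjusted p = 0.0662). Those higher with the Tfe3 ASO were Itgae, Fcgr4, Cd84, Rnase4 and Itgam. Rnase4, a secreted ribonuclease, had 1612, 1610.5, 1368 and 1425 CPM with the Mitf ASO, 1864, 1853, 1664 and 1662 CPM with the Tfe3 ASO and 1608, 1555, 1307 and 1457 CPM with ntc. All Tfe3 ASO libraries lay above all Mitf ASO and ntc libraries (log2 between the ASOs -0.23, adjusted p = 0.00944). Of the 108 measured lysosomal genes 0 were in this class, but it holds only 18 of all 10277 genes, so this count says little. Against ntc, 6 of the 108 were lower and 8 higher with the Tfe3 ASO, and 5 of the 108 were in the class of opposite directions.

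The 11 genes that moved in opposite directions included Ccl9, Tom1, Neu1, Clcn7, Hs1bp3, Galc, Dnase2a, Renbp, Rnf157 and Uap1l1, likewise named after their values were seen. All but Ccl9 were above ntc with the Mitf ASO and below it with the Tfe3 ASO. Galc, the galactocerebrosidase deficient in Krabbe disease, had 111, 95.97, 101 and 105 CPM with the Mitf ASO, 65.8, 62.4, 56.3 and 66.5 CPM with the Tfe3 ASO and 80.02, 71.6, 78.8 and 75.3 CPM with ntc. Its 3 groups did not overlap (against ntc 0.44 and -0.29, adjusted p = 0.000559 and 0.0405). Neu1, a sialidase, had 76.1, 82.2, 72.3 and 61.8 CPM with the Mitf ASO, 51.05, 53.9, 46.9 and 44.7 CPM with the Tfe3 ASO and 66.9, 62.7, 56.6 and 56.6 CPM with ntc (against ntc 0.27 and -0.31, adjusted p = 0.0127 and 0.0195). Clcn7 moved by 0.29 and -0.31 against ntc. The Tfe3 ASO libraries of Neu1 lay below every ntc library. This class of opposite directions held 0 genes without the block, 18 in DESeq2 and 4 to 9 when 1 library was left out, with 4 without Tfe3 ASO replicate 3 or 4, 6 without Tfe3 ASO replicate 1 and 7 without Mitf ASO replicate 2. The 8 genes that were higher than ntc with both ASOs and higher still with the Mitf ASO were Ctss, Man2b1, Tpd52, Fth1, Ctsb, Pld3, Ftl1 and Lox. That class held 4 to 6 genes when 1 library was left out.

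Genes of disease-associated microglia, the activated state seen around plaques and in neurodegeneration, were counted as a list. Of 33 measured genes of disease-associated microglia, 24 were higher and 0 lower than ntc with the Mitf ASO (5.77% and 5.21% of all genes, list median 0.50). With the Tfe3 ASO 12 were higher and 0 lower than ntc (1.46% and 0.701% of all genes, list median 0.31). Between the ASOs 5 were higher and 1 lower with the Mitf ASO (3.76% of all genes in either direction; median 0.22; 15 higher and 1 lower at an unadjusted p under 0.05). The 5 were Cd63, Ctsb, Ctsl, Ctsz and Fth1, of which 4 are also on the lysosome lists, and the 1 was Ccl6. Of 43 measured cytosolic ribosomal protein genes 23 were higher than ntc with the Mitf ASO (5.77% of all genes, list median 0.27). With the Tfe3 ASO 3 were higher than ntc (1.46% of all genes, list median 0.24). Between the ASOs 0 of the 43 differed (edgeR, with 1 at an unadjusted p under 0.05, 0 in DESeq2 and a median of 0.02). Rps2 was nearest, with a difference of 0.15 ± 0.06 (adjusted p = 0.213). Of 26 measured type I interferon genes 0 differed between the ASOs (edgeR; 1 at an unadjusted p under 0.05, 0 in DESeq2), with a median of 0.03 beside 0.43 and 0.36 against ntc. Ly6e, an interferon-induced surface protein, differed by 0.14 ± 0.05 (adjusted p = 0.165). Of 21 measured MHC and antigen presentation genes 0 differed in edgeR (1 at an unadjusted p under 0.05) and 1 in DESeq2. That was B2m, the light chain of class I molecules (0.16 ± 0.05, edgeR adjusted p = 0.0639). A missed threshold does not show that the ASOs act alike on these genes.

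Enzymes of glycolysis and serine synthesis were among the metabolic genes measured. Of 27 measured genes of glycolysis and hypoxia 3 were higher with the Mitf ASO and 0 lower (2.63% and 1.13% of all genes; median 0.11; 10 higher and 0 lower at an unadjusted p under 0.05; DESeq2 5 and 0). Gpi1 and Pgam1, enzymes of glycolysis, differed by 0.19 and 0.23 (adjusted p = 0.0426 and 0.0321), and both lost their calls whichever library was left out (adjusted p up to 0.19 and 0.146). Of 33 measured respiratory chain genes 0 differed (edgeR; 3 at an unadjusted p under 0.05, 0 in DESeq2), and Cox5b was nearest with 0.21 ± 0.08 (adjusted p = 0.165). Of 22 measured genes of the integrated stress response and amino acid handling 4 were higher and 1 lower with the Mitf ASO (2.63% and 1.13% of all genes). Phgdh and Psat1, enzymes of serine synthesis, had 199, 129, 122 and 106 CPM and 158, 96.3, 89.7 and 94.02 CPM with the Mitf ASO, against 131, 95.8, 111 and 76.3 CPM and 73, 65.6, 73.8 and 65.4 CPM with the Tfe3 ASO. Psat1 did not overlap between the ASOs and Phgdh did, and both were highest in the Mitf ASO library of grp 1 (log2 0.41 and 0.63, adjusted p = 0.00117 and 0.00104, and 0.736 and 0.104 without the block). Slc3a2, the heavy chain of amino acid transporters, was lower with the Mitf ASO (-0.21, adjusted p = 0.031), a call lost in 7 of 8 fits without a library (adjusted p up to 0.164). Bhlhe41, a clock repressor, was higher with the Mitf ASO (0.29, adjusted p = 0.0131), with the call lost without Mitf ASO replicate 1 or 3 or Tfe3 ASO replicate 1 (adjusted p up to 0.0651). Mcm5, a subunit of the replicative helicase, was the 1 of 19 measured cell cycle genes that differed (3.76% of all genes did). Its difference was -0.51 (adjusted p = 0.0378), and it lost its call in 6 of 8 such fits (adjusted p up to 0.135). Of 25 dissociation response genes 0 differed (edgeR; 5 at an unadjusted p under 0.05; DESeq2 2), and Ier3 was nearest (0.73 ± 0.21, adjusted p = 0.0636).

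The SgshKO libraries give the levels when both factors are targeted together, in other mice and on a diseased background; this comparison was added after the values above were seen. With the combination, Mitf was at 20.9% and Tfe3 at 47.3% of ntc, beside 3.56% and 19.2% with the single ASOs in wild type. 988 of 10589 genes differed from ntc (9.33%), 512 higher (4.84%) and 476 lower (4.50%). Of the 108 lysosomal genes 30 were lower and 9 higher with the combination (median log2 fold change -0.08 against 0.00 over all genes), beside 0 lower and 46 higher with the Mitf ASO alone in wild type. Without grp in that model 452 genes differed and 15 lysosomal genes were lower. Of the 154 genes higher with the Mitf ASO and that passed against ntc with that ASO only, 42 were lower and 6 higher with the combination. Of the 13 that passed with the Tfe3 ASO only and were lowered by it, Tfe3 included, 6 were lower and 0 higher, and of the 10 lowered by the Tfe3 ASO and raised by the Mitf ASO, 5 were lower and 0 higher. Dpp7 was lower with the combination (-0.29, adjusted p = 0.00047), as were Uap1l1 (-0.36, adjusted p = 0.000451), Flcn (-0.31, adjusted p = 0.00615), Vps18 (-0.36, adjusted p = 0.0007) and Clcn7 (-0.31, adjusted p = 0.00301). Lamp1 and Ctsa did not pass (0.06 and 0.06, adjusted p = 0.277 and 0.52), and Npc2 was higher (0.19, adjusted p = 0.00395). Chml was lower (-0.69, adjusted p = 6.27e-06), as it was with the Mitf ASO against ntc in wild type (-0.96, adjusted p = 3.85e-05), whereas Igfbp4 was higher (0.52, adjusted p = 0.000683) and had been lower with the Mitf ASO. Genotype, the extent of knockdown and the number of ASOs given all differ between the sets, so their parts cannot be told apart.

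The wild-type ASO libraries held 14372015 to 30378870 counts. Within a group, libraries correlated across genes with r of 0.966 to 0.985 (log2 CPM), and 0 pairs were identical. All 10 microglial markers were measured and 0 were called (edgeR; 3 lower with the Mitf ASO at an unadjusted p under 0.05, 0 called by DESeq2). Their summed level was 62756 to 66539 CPM with the Mitf ASO, 67300.1 to 69655 CPM with the Tfe3 ASO and 67173 to 71106 CPM with ntc, so that the ASO ranges did not overlap. In bulk RNA, fewer cells of a type and less RNA per cell cannot be told apart. 0 of 8 neutrophil and 0 of 10 neuronal markers were among the listed genes, nor were the border macrophage markers other than Mrc1. Other cell types did have listed markers. These were 4 of 11 for oligodendrocytes (140 to 159 CPM summed with the Mitf ASO, 149 to 170 CPM with the Tfe3 ASO), 4 of 9 for endothelial cells (426 to 467 and 437 to 480 CPM) and 2 of 9 for astrocytes (247 to 304 and 222 to 371 CPM). Ccr2 of the monocyte and Cd79b of the lymphocyte markers were listed too. 0 of these were called between the ASOs. Mrc1 had 52.4, 56.2, 39.1 and 46.6 CPM with the Mitf ASO, 37.8, 31.4, 29.8 and 31.9 CPM with the Tfe3 ASO and 28.9, 49.3, 42.7 and 37.2 CPM with ntc, and was higher with the Mitf ASO (log2 0.57, adjusted p = 0.0362). The ASO groups did not overlap each other, and ntc overlapped both. The part of these marker levels in the results above was not tested. Of the 60 named genes 11 overlap a coding gene on the opposite strand, among them Ctsa, Ctsb, Lamp1, Dnase2a, Tuba4a and Itgae. The libraries kept strand, but the strand setting of the counting is not given in the sources used here, so reads of such partners may be included.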

How the data were processed

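Microglial polyA RNA-seq of 20 wild-type ASO libraries was used, with 16 SgshKO libraries for side values. The authors deposited raw counts per gene, and a linear normalised signal with batch correction, by a method not given in the sources used here. The submitters' processing notes name mm10, STAR 2.5.3a, kallisto 0.44.0, HOMER 4.11, DESeq2 1.36.0 and R 4.2.3 without roles. Each listed gene had a mean of at least 7.05 counts, so low genes were absent from the start, by a rule not stated. Gene positions are from GENCODE release M21 (GRCm38), matched by identifier.

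Counts were tested with edgeR 4.0.16 in R 4.3.3 (quasi-likelihood F test, TMM factors, and filterByExpr at 10 counts, which kept all 10277 genes). 1 model held the 20 libraries with treatment and grp, leaving 12 residual degrees of freedom, and Benjamini-Hochberg adjustment ran over all genes at 0.05. The SE is the absolute log2 fold change divided by the square root of F and so restates the test. The titles give the treatments shared grp numbers, and deviations from the group means correlated across genes with r of 0.138 to 0.556 within a number and of -0.398 to 0.119 between numbers, which were taken to pair the libraries. PBS replicate 4 is in grp 4 by title and grp 3 by column name. The SgshKO model held grp. Named genes were the 4 family members, the 12 largest called differences per direction with 1 CPM and 1 sign in all grp pairs, and the 2 members of each of 23 lists with the smallest p per direction, or the nearest one. The members, lists and rules were chosen with earlier results of these data known. On counts simulated for this comparison over 10277 genes, the fit recovered 42% of 50 genes changed 1.3-fold, 68% at 1.5-fold, 96% at 2-fold and 96% at 3-fold. Alternatives were a fit of the 8 libraries, no block, RLE factors, DESeq2 1.42.0, other count filters, limma 3.58.1 on the log2 of the deposited signal plus 1 or 10, PBS in place of ntc, and each library left out. Single-gene values of 3 of the named or placed genes are not reported here.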

Additional observations from a re-analysis of the deposited data

Results flagged for a closer look

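In 6 of 120 groups of 4 libraries checked over the named genes, 1 library lay far from its 3 neighbours by Dixon's test, about the share (1 in 20) that chance gives. Ccl9 with the Mitf ASO was 191 CPM in replicate 1, against 135 to 140 in the others. Psat1 with the Mitf ASO was 158 CPM in replicate 1, against 89.7 to 96.3. Cox5b with the Mitf ASO was 23.8 CPM in replicate 4, against 34.8 to 35.3. With the Tfe3 ASO, Lox was 13.05 CPM in replicate 1 (others 6.89 to 7.86), Slc3a2 was 538 CPM in replicate 3 (others 448 to 455) and Tpp1 was 619 CPM in replicate 3 (others 672 to 680).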

How the results depend on the processing

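Small differences can be missed, since 42% of simulated 1.3-fold changes were recovered. The parts of depth and spread in this were not tested. Of 54 called named genes, 25 kept their call in every alternative run and 35 in all 8 fits that left out 1 library. Rb1cc1 changed sign, from -0.29 to 0.00661 and 0.00645 with a pseudocount of 1 and 10 on the signal. The cause of these changes was not tested.

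Without the replicate block, the genes differing between the ASOs numbered 100 (89 higher, 11 lower with the Mitf ASO), those differing from ntc 211 with the Mitf and 29 with the Tfe3 ASO, the called lysosomal genes 26, and the placed genes 46 (Mitf ASO only), 2 (Tfe3 ASO only), 0 (opposite), 2 (both, same direction) and 50 (unplaced). DESeq2 called 208 genes lower with the Mitf ASO than with the Tfe3 ASO. Against ntc it called 1319 genes with the Mitf ASO and 403 with the Tfe3 ASO, in either direction. It placed 33 genes with the Tfe3 ASO only, 18 as opposite and 20 as both. With the signal, 17 genes were placed as both with either pseudocount. With PBS in place of ntc, 45 genes were placed with the Tfe3 ASO only, 39 as both and 60 were unplaced. Leaving out 1 library gave 218 to 303 genes differing between the ASOs (178 to 221 higher, 40 to 90 lower), 630 to 1198 with the Mitf ASO against ntc, 79 to 206 with the Tfe3 ASO against ntc, and placed 129 to 198, 6 to 20, 4 to 9, 4 to 6 and 53 to 89 genes in the same order of classes, with 34 to 38 lysosomal genes. The share of called genes that were higher with the Mitf ASO was 69.9%, and 81.7% without Mitf ASO replicate 1 and 81.3% without Tfe3 ASO replicate 1. It was 62.5% in DESeq2, 61.8% and 62% with the signal (pseudocount 1 and 10) and 89% without the replicate block. In SgshKO, 452 genes differed without a block, against 988, and 15 lysosomal genes were lower, against 30.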
